A study of Mus musculus with 8 samples.

Results

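Long-term haematopoietic stem cells (LT-HSCs) that carry the Vwf-GFP reporter signal were compared with LT-HSCs that lack it, within heterozygous Dnmt3a+/- mice. The comparison takes the 2 Vwf+ Dnmt3a+/- libraries and the 2 Vwf- Dnmt3a+/- libraries out of 8 in the series, chosen by their labels and paired by replicate number, and covers the 15917 genes with enough counts to test. Cells of all groups were bone marrow cells sorted as lineage-negative, CD117-positive, Sca1-positive, CD150-high and CD48-low, and all groups share the Vwf-GFP reporter, whose signal divided them. Mice were 10 to 12 months old, no treatment is named, replicate 1 was male and replicate 2 female in every group, and each library was made from total RNA of a pool of 3 to 4 mice. The other 4 libraries are the Vwf+ and Vwf- fractions of wild-type (WT) mice, 2 of each. The labels describe neither the altered Dnmt3a allele nor whether the 2 fractions of a pair came from the same mice. The labels call the replicates biological. Each p-value below, unless given as without the replicate term, rests on the spread between pools left after a replicate difference shared by all 8 libraries.

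Von Willebrand factor is a large adhesive glycoprotein that megakaryocytes, platelets and endothelial cells store and release. A fraction of LT-HSCs already transcribes its gene, and that fraction is biased toward the platelet lineage and sits near the top of the stem cell hierarchy. Dnmt3a is a de novo DNA methyltransferase whose loss favours self-renewal of stem cells over differentiation, and heterozygous loss is common in clonal haematopoiesis.

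The 4 Dnmt3a+/- libraries held 21809278 to 39402418 counts, and the Vwf- libraries were the deeper ones. The ribosomal RNA precursor Rn45s took 6.08% to 11.9% of the counts. Levels are counts per 1000000 counts (CPM) after TMM scaling, and changes are on the log2 scale as Vwf+ minus Vwf-, with the standard error (SE) of edgeR's fit. Replicates 1 and 2 of a group differed by far more than sampling noise, with a chi-square per degree of freedom of 62.8 for the Vwf+ and 129 for the Vwf- Dnmt3a+/- libraries. A gene was called when its Benjamini-Hochberg adjusted p from edgeR's quasi-likelihood test was under 0.05. In sorted cells read in bulk, fewer cells of a kind and less RNA per cell cannot be told apart.

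The Vwf+ fraction of Dnmt3a+/- LT-HSCs differed from the Vwf- fraction by more higher than lower genes. The higher ones held 24 of 28 tested genes known from old or platelet-biased stem cells, 18 of them without the replicate term, and the lower ones 40 of 48 replication-dependent histone genes, 0 without it. The gene lists were written with earlier results of these data known, so these counts are descriptions. Of 15917 genes, 855 were called (5.37%), 560 higher (3.52%) and 295 lower (1.85%) in Vwf+ cells. The higher genes changed more: their median was 2.23-fold, 124 of them reached 4-fold and 40 reached 8-fold. The lower genes had a median of 1.71-fold, 15 reached 4-fold and 3 reached 8-fold. Most genes moved little, with a median log2 change of -0.01 over all tested genes and an interquartile range from -0.22 to 0.22.

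**Figure D1:**
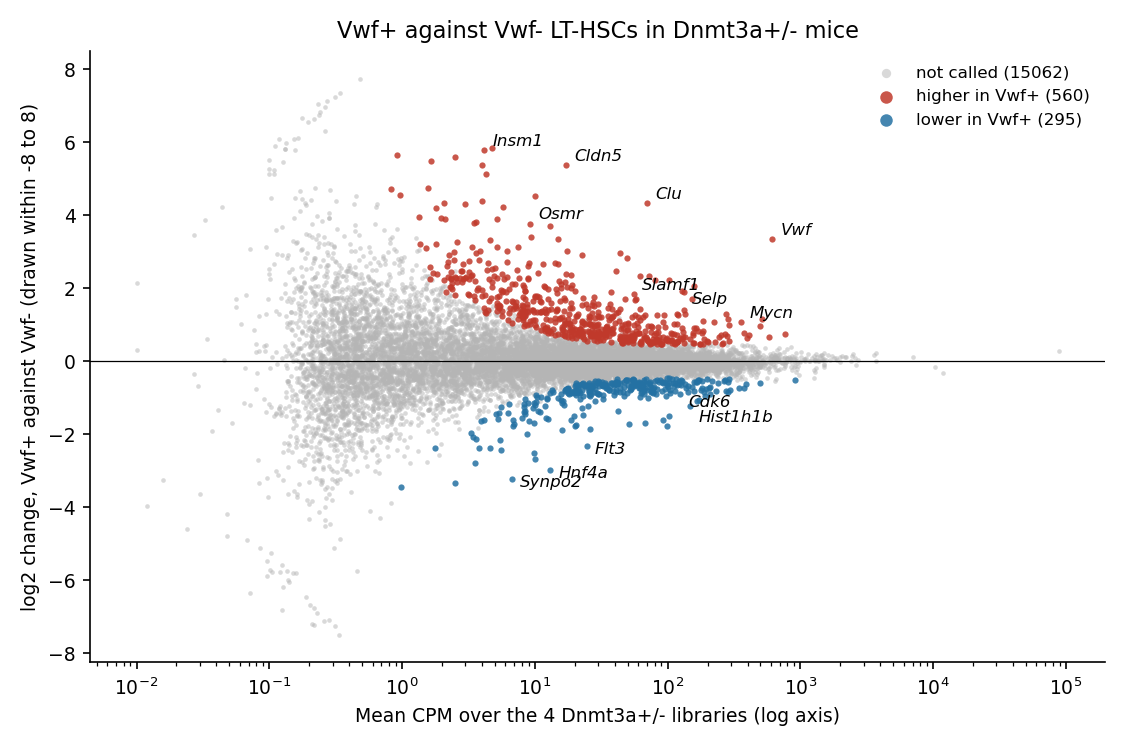
Mean level of each tested gene over the 4 Dnmt3a+/- libraries (CPM, log axis) against its log2 change in Vwf+ relative to Vwf- cells. Each point is a gene, the 560 higher and 295 lower genes are coloured, and the higher genes reach further from 0 than the lower ones.

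The 2 pairs moved alike for the called genes. All 295 lower genes and 559 of the 560 higher genes changed in the same direction in the male and in the female pair. The exception was the platelet tubulin gene Tubb1. The 2 Vwf+ libraries lay wholly above the 2 Vwf- libraries in 541 of the 560 higher genes, and wholly below in 249 of the 295 lower genes. Over all tested genes, 17.2% lay wholly above and 15.2% wholly below. Because these genes were chosen by the same libraries, both counts are descriptions. Across 9836 genes with a mean of at least 10 CPM, the differences of the 2 pairs had a Pearson correlation of 0.62, and genes are not independent points. The number of calls rests on the replicate term, which is shared by all 8 libraries. Without the replicate term 169 genes were called, 142 higher and 27 lower, and all 169 were among the 855. Leaving out the male Vwf+, the female Vwf+, the male Vwf- or the female Vwf- library left 476, 386, 670 and 398 calls, and counts of list members after leaving out 1 library are given below in that order.

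**Figure D2:**
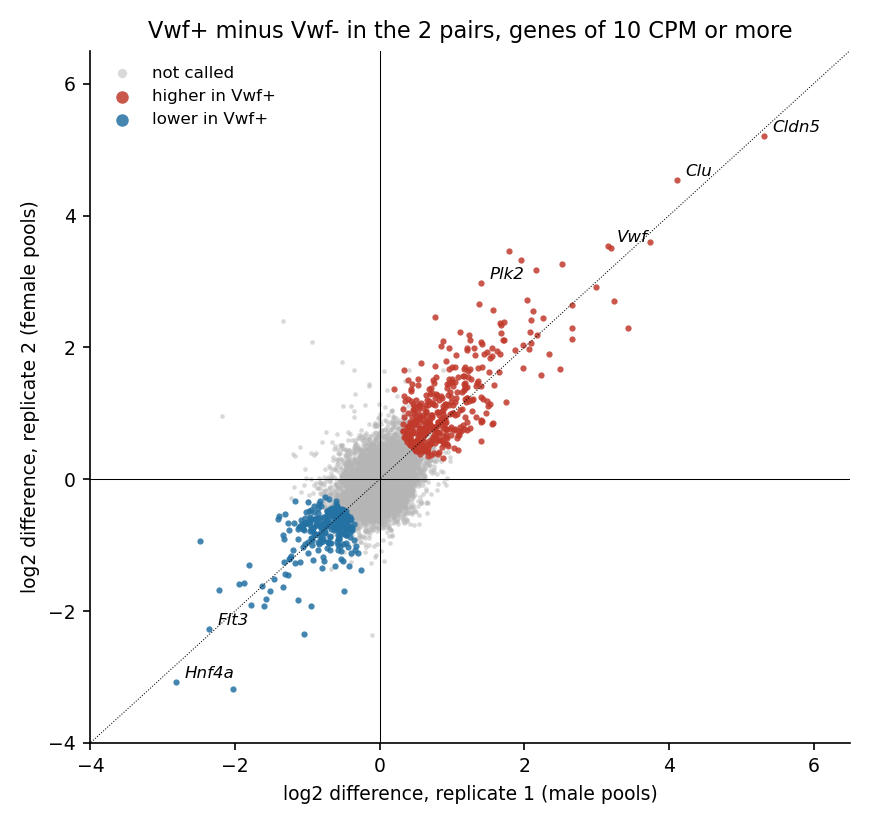
The log2 difference between Vwf+ and Vwf- cells in the male pair (x axis) against that in the female pair (y axis), for genes with a mean of at least 10 CPM. Points are genes, coloured where called in edgeR's test, the dotted line marks equal differences, and the called genes lie in the lower left and upper right.

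The gene behind the reporter followed the sort, which is a description since the sort used it. The level of Vwf (chromosome 6, 125546774 to 125686679) was 1034 and 1203 CPM in Vwf+ replicates 1 and 2, against 116 and 104 CPM in Vwf- replicates 1 and 2. The Vwf+ libraries were 10.1-fold higher, and the Vwf- fraction was not devoid of the transcript. Dnmt3a itself stood at 179 and 279 CPM in Vwf+ and 361 and 275 CPM in Vwf- cells, ranges that overlap (log2 change -0.48 ± 0.19 SE, adjusted p = 0.19). Of the other genes behind the sort, Slamf1, which encodes CD150, stood at 87.1 and 86.2 CPM in Vwf+ and 22.04 and 26.6 CPM in Vwf- libraries. It rose 3.58-fold although all cells had been gated as CD150-high. Kit, the gene of CD117, had a log2 change of -0.14 ± 0.14 SE and Ly6a, a gene of the Sca1 antigen, 0.14 ± 0.20 SE, and neither was called. Cd48 was near the detection limit at 0.395 to 3.19 CPM.

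The 15 higher genes with the smallest p-values included Clu, Cldn5, Ehd3, Amotl2 and Kdr. Clu (chromosome 14, 65968483 to 65981547), which encodes the secreted chaperone clusterin and rises with stem cell age, stood at 115 and 150 CPM in Vwf+ and at 6.59 and 6.39 CPM in Vwf- libraries. No value of one fraction came near the other, and the difference was 4.34 ± 0.19 SE (adjusted p = 1.2e-11). Cldn5 (chromosome 16, 18776847 to 18778262), a tight-junction claudin best known from endothelium, stood at 38.8 and 28.3 CPM against 0.907 and 0.702 CPM. It was 41.2-fold higher, with log2 differences of 5.31 and 5.20 in the 2 pairs.

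Of the same 15 genes, Ehd3, which encodes a protein that shapes recycling endosomes, stood at 117 and 124 CPM against 24.5 and 22.8 CPM, a 5.08-fold rise. Amotl2, which encodes an angiomotin-like partner of junctions and of the Hippo pathway, rose as much, from 22.4 and 18.4 to 97.7 and 108 CPM. The VEGF receptor gene Kdr (chromosome 5, 75932827 to 75978458) stood at 40.1 and 39.2 CPM against 6.93 and 4.02 CPM. All 3 had groups far apart, with replicates within a fraction closer to each other than to any library of the other fraction. Ramp2, which encodes a chaperone of the adrenomedullin receptor, rose 23.1-fold from 0.525 and 1.21 CPM to 17.4 and 20.9 CPM. The endocytic dynamin gene Dnm3 rose 10.1-fold, and Klrb1c, the gene of the NK1.1 antigen of natural killer cells, rose 8.04-fold. The receptor gene Neo1 rose 7.13-fold, the collagen gene Col18a1 5.54-fold and the focal adhesion gene Tns2 3.78-fold. Hoxb8 and Matn4 complete the 15, and 14 of them stayed called without the replicate term, the exception being Col18a1 (adjusted p = 0.087).

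Per length, the order of these genes was different from that of their changes. Mean TPM in the Vwf+ libraries, as deposited, was 274 for Vwf, 159 for Clu, 93.2 for Tns2 and 71.4 for Ehd3, whereas Cldn5 stood at 51.3, Ramp2 at 47.4 and Hoxb8 at 19.8. Thus the genes with the widest relative differences were not the most abundant ones. Among genes of at least 5 CPM in the higher fraction, the widest relative differences also included Ptprb, a vascular receptor phosphatase gene, Insm1, a zinc finger gene of neuroendocrine cells, and Pde3a, a phosphodiesterase gene of platelets and heart. Their log2 changes were 5.83 ± 0.71, 5.79 ± 0.59 and 5.37 ± 0.59 SE. They stood at 4.34 to 11.3 CPM in the 4 values from Vwf+ libraries of Insm1 and Pde3a and at 10.8 and 7.64 CPM for Ptprb, while every Vwf- value of the 3 genes lay between 0 and 0.43 CPM.

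**Figure D3:**
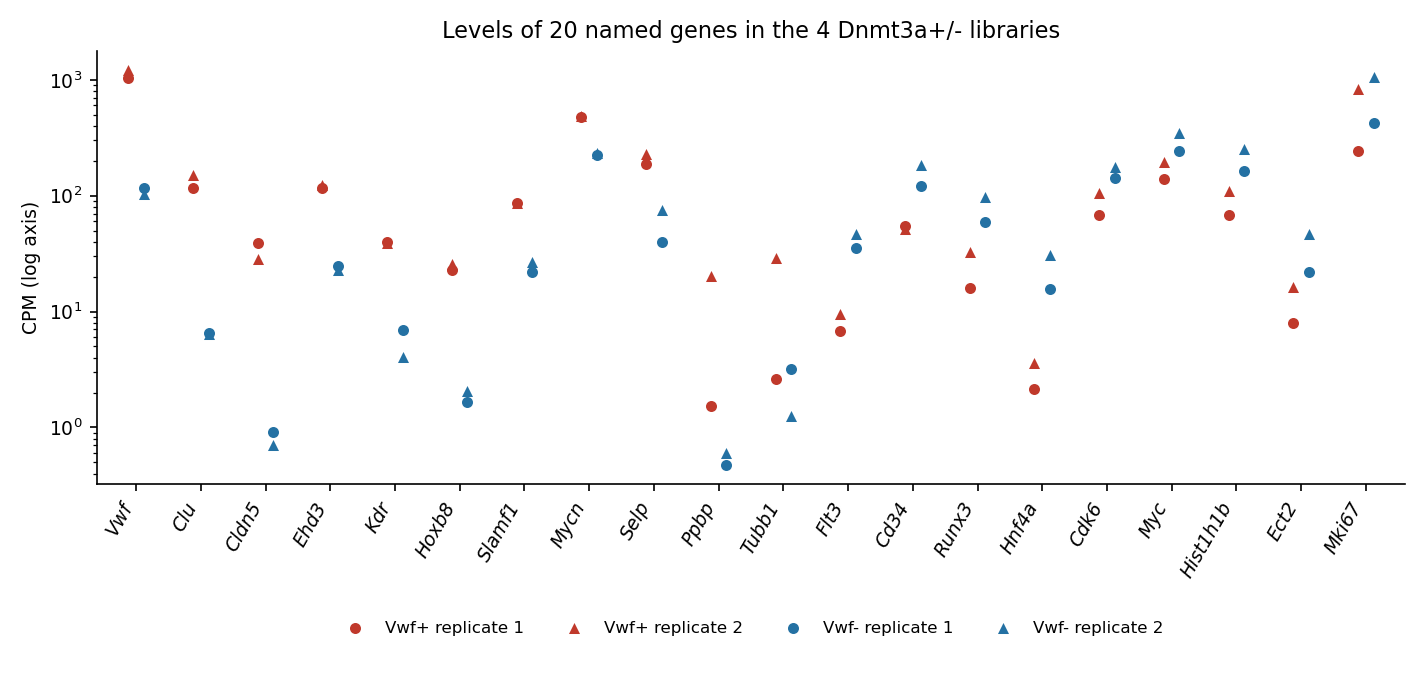
CPM (log axis) of 20 named genes in each of the 4 Dnmt3a+/- libraries, with Vwf+ in red and Vwf- in blue, replicate 1 (male) as circles and replicate 2 (female) as triangles. Fractions are far apart for the genes at the left, Ppbp and Tubb1 are high in 1 Vwf+ library, and for Ect2, Hist1h1b and Mki67 the replicates of a fraction also differ.

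Genes known from old or platelet-biased stem cells were higher as a group in Vwf+ Dnmt3a+/- cells. Of 28 tested, 24 were higher and 0 lower, and the median log2 change was 1.77 against -0.01 over all genes. It was 18 without the replicate term. The list was assembled from known markers of these cells and includes genes such as Slamf1 that belong to the sort, so its direction is not independent of how the cells are defined. The P-selectin gene Selp, a platelet and endothelial adhesion receptor, rose from 40.0 and 75.9 to 188 and 227 CPM. Jam2, a junctional adhesion gene, rose from 18.3 and 13.6 to 60.04 and 59.3 CPM. The oncostatin M receptor gene Osmr rose 3.77 ± 0.34 SE, from 1.72 and 0.798 to 21.01 and 13.3 CPM. All 3 were separated without overlap. The member with the highest mean level, the transglutaminase gene Tgm2, rose less, by 0.97 ± 0.15 SE, from 302 and 370 to 552 and 767 CPM.

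Genes of stem cell identity moved in the same direction by smaller amounts. Of 28 tested, 11 were higher and 0 lower (median 0.33). The proto-oncogene Mycn stood at 480 and 489 CPM in Vwf+ against 222 and 235 CPM in Vwf- libraries. Ctnnal1, which encodes alpha-catulin, stood at 90.1 and 80.7 against 35.7 and 42.1 CPM. Fgd5, an exchange factor gene whose reporter marks LT-HSCs, stood at 282 and 217 against 146 and 89.6 CPM. Mllt3, a cofactor gene that maintains human stem cells in culture, rose 1.07 ± 0.14 SE. The groups did not overlap for any of these 4 genes, and Fgd5 lost its call without the replicate term (adjusted p = 0.11). Over the list 4 genes were higher without that term, and 7, 6, 8 and 7 without 1 library. The most abundant member, Lmo2, a bridging factor of the blood transcription complex, had a change of 0.12 ± 0.15 SE and was not called.

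Of 29 tested megakaryocyte and platelet genes 12 were higher and 0 lower (median 0.54), and 1 library carried part of that count. The integrin beta-3 gene Itgb3, which forms the platelet fibrinogen receptor, stood at 377 and 406 CPM against 177 and 139 CPM. The von Willebrand receptor gene Gp1bb stood at 5.18 and 10.2 against 1.53 and 2.17 CPM, and Clec1b, the gene of the podoplanin receptor CLEC-2, at 3.38 and 4.49 against 0.43 and 0.128 CPM. These 3 genes were higher in both Vwf+ libraries. Zfpm1, the GATA1 cofactor gene with the highest level in the list, stood at 771 and 1011 against 650 and 754 CPM and was not called (0.34 ± 0.15 SE, adjusted p = 0.28).

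Platelet granule and tubulin genes behaved differently between the 2 Vwf+ libraries. Ppbp, the gene of the platelet basic protein, stood at 1.53 and 20.2 CPM in Vwf+ replicates 1 and 2 and at 0.478 and 0.607 CPM in Vwf- libraries. Tubb1 stood at 2.63 and 28.7 CPM against 3.20 and 1.25 CPM, so that only the female Vwf+ library was high and the groups overlapped. Pf4, the gene of platelet factor 4, stood at 17.1 and 33.8 against 10.1 and 6.10 CPM. Leaving out 1 library left 10, 3, 9 and 3 of the 29 megakaryocyte and platelet genes called, and the median without the female Vwf+ library was 0.48. Of 9 tested markers of mature megakaryocytes and platelets 5 were higher, and 4, 1, 4 and 1 when 1 library was left out, with a median of 0.84 and, without the female Vwf+ library, of 0.52. When the replicate term was dropped, 3 of the 29 genes and 1 of the 9 markers were called. The summed level of those 9 markers was 285 and 439 CPM in Vwf+ and 243 and 229 CPM in Vwf- libraries. Whether mature megakaryocytes or platelets in that pool carried these transcripts was not tested.

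Endothelial genes were among the highest changes, and markers of other cells were mostly scarce. Of 14 tested endothelial markers 5 were higher and 0 lower (median 0.93, or 0.50 without the female Vwf+ library and 0.35 in WT cells). The 5 were Cldn5, Ramp2, Kdr, the SOX gene Sox18 and the angiopoietin receptor gene Tek. In WT cells 5 of the 14 were also higher and 0 lower. Gene by gene, the median difference between genotypes was -0.04, and 6 of 14 changes were more positive in Dnmt3a+/- cells. The summed level of these 14 markers was 689 and 613 CPM in Vwf+ and 481 and 442 CPM in Vwf- libraries. Tie1, the most abundant of them, stood at 323 and 240 against 272 and 199 CPM, overlapping ranges in which each pair was higher in Vwf+ cells, and it was not called (0.26 ± 0.13 SE). Of 16 listed endothelial genes, Sox17 and Lyve1 had too few counts to test and none was at 0 in all 4 libraries. Several of these genes, such as Tie1 and Tek, are also known from stem cells, and the part of endothelial cells in the result was not tested. With 1 library left out, 4, 3, 4 and 4 of the 14 were higher.

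Summed levels of B cell markers were 23 to 30.5 CPM in Vwf+ and 20.4 to 35.1 CPM in Vwf- libraries, with 0 of 9 called. Those of T and NK cells were 12.6 and 15.1 against 18.7 and 20.2 CPM, with the granule gene Nkg7 alone lower among 4 tested, and Klrd1 and Gzma were at 0 in all 4 libraries. Neutrophil markers summed to 29.4 and 18.6 against 15.6 and 55.2 CPM (0 of 10 called) and monocyte and macrophage markers to 28.1 and 46.8 against 31.2 and 31.2 CPM (0 of 12 called). Mast cell, basophil and eosinophil markers summed to 9.08 and 64.3 against 27.1 and 63.0 CPM, with the eosinophil granule gene Prg2 at 0.526 and 34.9 against 2.63 and 17.98 CPM. Cpa3, a mast cell carboxypeptidase gene, was the 1 called member of 9 and fell by 2.13 on the log2 scale. Of 10 tested stromal markers 1 was higher, the chemokine gene Cxcl12. Without the replicate term Nkg7, Cpa3 and Cxcl12 were not called (adjusted p = 0.15, 0.065 and 0.24). The 4 globin genes Hba-a1, Hba-a2, Hbb-bs and Hbb-bt were at 0 in all 4 libraries, and 0 of 5 tested markers of maturing erythroid cells were called.

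Part of the Hoxb cluster was higher in Vwf+ Dnmt3a+/- cells. Of 17 tested Hoxa and Hoxb genes, which encode homeodomain transcription factors, 5 were higher and 0 lower, and the 5 were Hoxb5 to Hoxb9. The median of 0.18 was 0.02 without the male Vwf+ library, 0.59 without the male Vwf- library and -0.04 without a filter on low counts. Hoxb8 (chromosome 11, 96281905 to 96285315) stood at 22.9 and 25.6 CPM against 1.65 and 2.04 CPM, a 13.2-fold difference. Hoxb9 stood at 9.47 and 5.94 against 0.693 and 0.0319 CPM, and Hoxb6 at 31.2 and 15.2 against 9.74 and 3.19 CPM. Hoxb5, a marker of LT-HSCs, rose least of the named ones, from 10.7 and 8.24 to 22.5 and 20.7 CPM. Hoxa9, the most abundant member and a regulator of stem cell proliferation, stood lower in Vwf+ cells at 58.7 and 51.1 against 85.7 and 61.7 CPM and was not called (adjusted p = 0.10). Of the 5, 3 were called without the replicate term, and Hoxb6 was not (adjusted p = 0.15).

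Of 18 tested genes of retinoid and xenobiotic metabolism 5 were higher and 0 lower (median 0.36), and 2 were higher without the replicate term. Rarb, a retinoic acid receptor gene, stood at 47.0 and 34.6 against 21.7 and 7.34 CPM. Cyp26b1, whose enzyme breaks retinoic acid down, stood at 74.5 and 68.0 against 31.4 and 15.7 CPM, and Rdh10, whose enzyme starts its synthesis, at 27.1 and 27.1 against 11.3 and 8.43 CPM. These 3 genes were each higher without overlap. The sulfotransferase gene Sult1a1 rose 1.70 ± 0.18 SE, and Aldh2, the most abundant member, did not change measurably (0.01 ± 0.15 SE). Of these 4 called genes, Rarb and Cyp26b1 were not called without the replicate term (adjusted p = 0.22 and 0.14).

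Of 28 genes of Wnt, Notch and Hippo signalling 6 were higher and 0 lower (median 0.21), and 3 were higher without the replicate term. The Notch ligand genes Dll4 and Jag1 stood at 12.2 and 6.48 against 3.96 and 0.639 CPM, and at 18.2 and 14.5 against 7.19 and 5.43 CPM. Wwtr1, which encodes the Hippo effector TAZ, stood at 38.5 and 32.1 against 19.3 and 16.0 CPM. The receptor gene Notch2, the most abundant of the list, had a change of -0.19 ± 0.14 SE and was not called. Dll4 was not called without the replicate term (adjusted p = 0.35).

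Adhesion and matrix genes were mostly called in the higher direction. Of 26 genes of niche adhesion and homing 7 were higher and 0 lower (median 0.12), and of 28 matrix genes and matrix receptors 8 were higher and 1 lower (median 0.69). Alcam, an immunoglobulin family adhesion gene, stood at 185 and 152 against 75.1 and 65.6 CPM, and the junctional adhesion gene Jam3 at 30.7 and 21.2 against 15.5 and 12.2 CPM. S1pr1, the receptor gene for sphingosine 1-phosphate that guides egress, stood at 45.7 and 36.2 against 24.8 and 24.3 CPM, and Itga6, an integrin subunit gene, rose 0.54 ± 0.14 SE. Matn4, a matrilin gene, stood at 93.2 and 62.8 against 11.6 and 8.27 CPM. The laminin gene Lama4 rose 1.79 ± 0.26 SE and Ddr1, a collagen receptor gene, 2.96 ± 0.44 SE, whereas the basement membrane collagen gene Col4a2 fell by 0.66 on that scale. Without the replicate term 2 niche adhesion and 3 matrix genes were higher. Jam3, S1pr1, Itga6 and Col4a2 were then not called, with adjusted p = 0.13, 0.13, 0.19 and 0.29. Leaving out 1 library gave 2, 4, 4 and 3 higher niche adhesion genes, and the matrix median was 0.43 without the female Vwf+ library.

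Imprinted genes, which are expressed from 1 parental allele and include growth restrainers of stem cells, were higher for 6 of 26 tested members and lower for 0 (median 0.30). The non-coding gene H19 stood at 4.65 and 11.98 CPM in Vwf+ cells, against 0 and 0.575 CPM in Vwf- cells. Dlk1, which encodes a Notch-related membrane protein, stood at 19.6 and 13.5 against 7.14 and 3.54 CPM. Cdkn1c, the gene of the cell cycle inhibitor p57, stood at 57.7 and 43.9 against 26.9 and 26.5 CPM, and Ndn at 73.1 and 62.3 against 36.3 and 31.1 CPM. All 4 were separated without overlap, and without the replicate term only Ndn of them stayed called (adjusted p = 0.015). With 1 library left out, 3, 5, 5 and 4 were higher. Gnas, the most abundant member, had a change of 0.08 ± 0.16 SE.

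Receptors for cytokines split in direction. Of 30 tested, 5 were higher and 2 lower (median 0.12). Besides Osmr and Kdr, the growth hormone receptor gene Ghr stood at 34.2 and 42.6 against 14.7 and 16.1 CPM, and Il10ra, the gene of an interleukin-10 receptor chain, at 19.6 and 16.8 against 7.52 and 2.62 CPM. The 2 lower ones were Flt3 and Il18r1, an interleukin-18 receptor gene that stood at 3.11 and 3.51 against 7.83 and 13.03 CPM. Of the 7 called receptors, Il10ra and Il18r1 were among those not called without the replicate term (adjusted p = 0.28 and 0.10), which left 3 higher and 1 lower.

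Immediate-early genes were partly higher. Of 27 tested, 7 were higher and 1 lower (median 0.26, or 0.57 without the male Vwf- library). Klf2, a Krüppel-like factor gene, stood at 36.4 and 36.1 against 18.8 and 9.04 CPM, Junb, an AP-1 gene, at 221 and 201 against 128 and 99.3 CPM, and Egr3 at 14.1 and 12.0 against 5.83 and 1.69 CPM. Btg2, an antiproliferative gene that is also a p53 target, stood at 69.7 and 39.8 against 27.9 and 10.8 CPM. The lower member was Myc, the driver of growth and biosynthesis, at 140 and 194 against 244 and 350 CPM. Jun, the most abundant, followed replicate and not fraction, at 1848 and 1016 against 2156 and 966 CPM (-0.08 ± 0.15 SE). Of these 5 called genes Junb alone was called without the replicate term (adjusted p = 0.036), and over the whole list 1 was. Leaving out 1 library left 7, 3, 8 and 4 genes of the list higher.

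Of 25 p53 targets 4 were higher and 0 lower (median 0.14). They included Plk2, a polo-like kinase gene at 147 and 108 against 55.4 and 13.6 CPM, and the sestrin gene Sesn1 at 119 and 113 against 82.4 and 71.9 CPM, and 0 were called without the replicate term and 3, 2, 3 and 2 without 1 library. Trp53 itself did not pass (-0.13 ± 0.14 SE). Of 44 interferon response genes 7 were higher and 1 lower (median 0.20). Slfn2, a schlafen family gene, stood at 61.9 and 54.2 against 27.3 and 19.6 CPM and was the 1 gene called without the replicate term. Ifitm1, a membrane restriction factor gene, stood at 212 and 180 against 113 and 116 CPM. Higher interferon genes numbered 2, 3, 5 and 4 after leaving out 1 library, with a median of 0.05 without the male Vwf+ library. Of 21 myeloid priming genes 3 were higher, the transcription factor genes Gfi1 and Cebpb and the proteinase 3 gene Prtn3. Without the male Vwf+ library 6 of the list were higher, against 3 without any other Dnmt3a+/- library, and the median of 0.33 became 0.90 without the male and -0.34 without the female Vwf+ library. Gfi1 stood at 38.6 and 12.3 against 17.0 and 4.57 CPM, overlapping because the male libraries were higher in both fractions, and it was not called without the replicate term (adjusted p = 0.85).

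Of 26 TGF-beta and BMP genes 2 were higher and 1 lower, among them the ligand gene Bmp4 at 17.9 and 12.7 against 6.19 and 3.07 CPM and the inhibitory gene Smad7. Of 21 NF-kB genes 1 was higher, the inhibitor gene Nfkbia by 0.57 ± 0.14 SE, and 1 lower, Rel by -0.98 ± 0.27 SE. Of 22 glycolysis genes 2 were higher, the hexokinase gene Hk2 and Pfkfb3, whose enzyme makes the activator of phosphofructokinase. Shares called were 11.5%, 9.52% and 9.09% of the TGF-beta and BMP, NF-kB and glycolysis genes, against 5.37% of all tested genes. None of the named genes of these 3 lists was called without the replicate term, and each of the 3 counts moved when single libraries were left out: 2, 1, 1 and 1 TGF-beta and BMP genes, 0, 0, 1 and 0 NF-kB genes and 1, 0, 0 and 1 glycolysis genes were then higher.

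**Figure D4:**
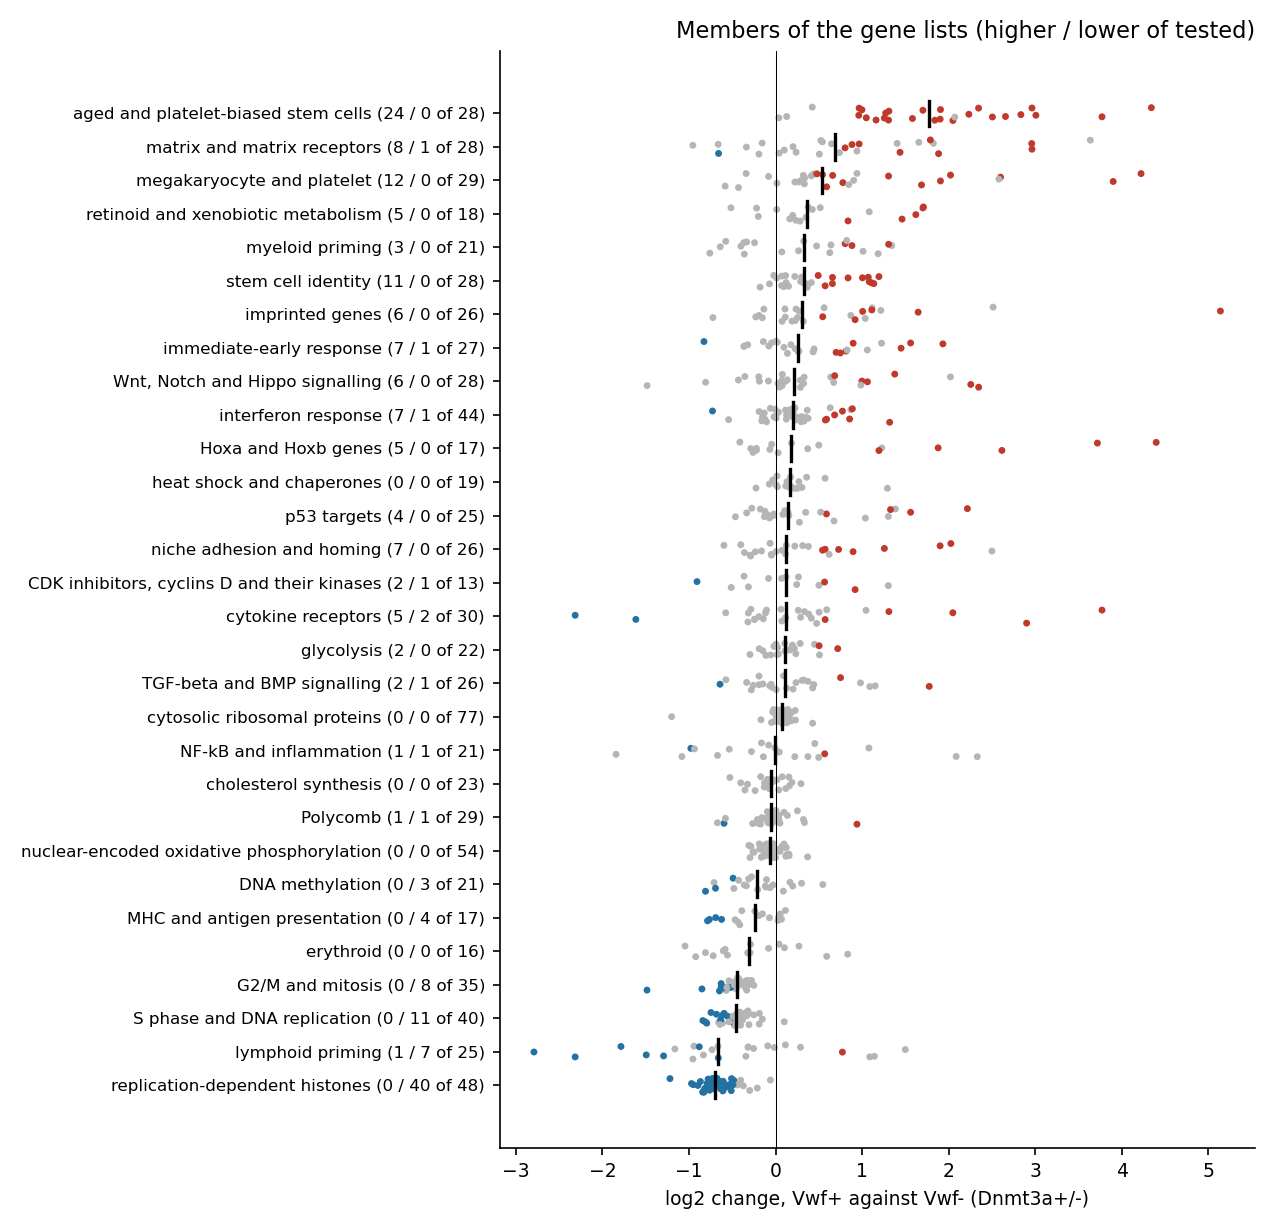
Log2 change of each tested member of 30 gene lists in Vwf+ against Vwf- Dnmt3a+/- cells, lists ordered by their median (black bar), with called members in red (higher) or blue (lower). Numbers after each name give members higher, lower and tested. Genes of aged and platelet-biased cells are at the top and replication-dependent histones at the bottom.

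Among genes lower in Vwf+ cells, the GTPase-activating gene Arhgap30, found mainly in blood cells, had the smallest p and stood at 42.5 and 48.4 CPM against 131 and 149 CPM, 3.08-fold lower. Flt3 (chromosome 5, 147330741 to 147400489), the receptor gene that marks multipotent and lymphoid-primed progenitors, stood at 6.80 and 9.59 against 35.3 and 46.7 CPM. Cd34 (chromosome 1, 194938819 to 194961279), a sialomucin gene that is low in the most primitive mouse stem cells, stood at 55.0 and 51.8 against 121 and 185 CPM. In all 3 the fractions did not overlap, and for Cd34 the 2 Vwf- libraries differed by about as much as the gap between the fractions.

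Runx3, a Runt transcription factor gene of lymphocytes, stood at 16.0 and 32.5 against 58.8 and 97.5 CPM. The nuclear receptor gene Hnf4a, known from liver, stood at 2.15 and 3.58 against 15.6 and 30.7 CPM, 7.90-fold lower. Slc22a3, an organic cation transporter gene, stood at 30.3 and 33.4 against 90.1 and 118 CPM, and Mdga1, an adhesion gene of the nervous system, at 40.8 and 49.8 against 158 and 150 CPM. The fractions were apart in each. The sphingolipid transporter family gene Spns3, the actin-binding gene Synpo2 and the adaptor gene Clnk fell by 2.52, 3.22 and 2.68 on the log2 scale. The presynaptic scaffold gene Bsn, the co-chaperone gene Dnajc6, the adaptor gene Sh2d5 and the dynein gene Dnah8 fell by 1.85, 1.38, 1.62 and 1.1. Cd244, a receptor gene of the SLAM family, and Mc5r, a melanocortin receptor gene, fell by 2.79 and 2.44 and were scarce, at 0.702 to 1.71 CPM in the Vwf+ libraries. Of the 15 lower genes with the smallest p, Runx3, Dnajc6, Clnk and Hist1h1b were not called without the replicate term (adjusted p = 0.061, 0.093, 0.08 and 0.14).

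Lymphoid priming genes were lower for 7 of 25 tested members and higher for 1. Their median was -0.66, with -0.31 and -0.43 without the male and the female Vwf+ library, -0.38 with the Dnmt3a+/- libraries alone and -0.30 by limma on TPM. Cd27, a TNF receptor family gene, stood at 82.8 and 65.1 against 137 and 134 CPM, and the tetraspanin gene Cd37 at 14.7 and 11.4 against 36.8 and 27.4 CPM. The higher one was Mef2c, a transcription factor gene of lymphoid and megakaryocyte cells, at 202 and 259 against 127 and 142 CPM. Bcl11a, the most abundant member, had a change of 0.11 ± 0.13 SE. Of 17 tested MHC genes 0 were higher and 4 lower (median -0.24), namely H2-Ab1, H2-Aa, H2-Eb1 and their activator gene Ciita. H2-Ab1 stood at 62.8 and 49.0 against 94.99 and 94.8 CPM and Ciita at 9.78 and 10.1 against 19.96 and 14.2 CPM, whereas the class I gene H2-K1 stood at 1599 and 1543 against 1540 and 1530 CPM. Without the replicate term 4 lymphoid genes and 0 MHC genes were lower, and leaving out 1 library left 6, 5, 6 and 4 lymphoid and 1, 0, 2 and 4 MHC genes lower.

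Genes of DNA replication and mitosis had mostly negative changes. All 35 tested G2/M genes and 39 of 40 S phase genes had a negative change, with medians of -0.45 and -0.46, and 8 and 11 of them were called lower and 0 higher. Ect2, a cytokinesis exchange factor gene, stood at 7.98 and 16.3 CPM against 22.1 and 46.4 CPM and had the largest change of the G2/M list, -1.49 ± 0.25 SE. The mitotic kinesin gene Kif11 stood at 56.6 and 123 against 83.4 and 190 CPM. Mki67, the proliferation marker with the highest level, stood at 245 and 837 against 424 and 1060 CPM and was not called (-0.54 ± 0.20 SE, adjusted p = 0.15). For Kif11 and Mki67 the male Vwf- library lay below the female Vwf+ library, so the groups overlapped while each pair differed in the same direction.

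In the S phase list, the polymerase delta gene Pold1 stood at 84.0 and 106 against 122 and 176 CPM and the thymidylate synthase gene Tyms at 29.4 and 34.9 against 43.7 and 55.0 CPM. Uhrf1, which guides maintenance methylation to replicated DNA, stood at 73.3 and 149 against 109 and 298 CPM. Replicate differences were again as wide as those between fractions for Uhrf1. The helicase gene Mcm6, the most abundant member, was not called (-0.41 ± 0.17 SE). The summed level of the S phase genes was 2231 and 3447 CPM in Vwf+ and 2766 and 5271 CPM in Vwf- libraries, and that of the G2/M genes 1278 and 3051 against 1838 and 4220 CPM. The female libraries were higher in both fractions. Without the replicate term, and by limma on TPM, 0 genes of either list were called. Without the female Vwf- library both medians were -0.30. With 1 library left out, 0, 2, 18 and 0 S phase genes and 1, 4, 11 and 0 G2/M genes were lower.

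Regulators of the cell cycle gave 2 higher genes and 1 lower gene of 13. The cyclin gene Ccnd1 stood at 68.7 and 82.8 against 47.9 and 54.6 CPM, beside Cdkn1c. Cdk6, whose kinase drives cells through G1, stood at 68.7 and 105 against 143 and 178 CPM, 0.91 ± 0.15 SE lower on the log2 scale. None of the 3 was called without the replicate term. Of 29 Polycomb genes the methyltransferase gene Ezh1 was higher and its paralogue Ezh2 lower, a share called of 6.9% against 5.37% of all tested genes. Ezh1 stood at 121 and 132 against 73.0 and 58.8 CPM and Ezh2 at 69.6 and 86.8 against 95.9 and 144 CPM, each without overlap. Of 21 DNA methylation genes 0 were higher and 3 lower (median -0.21): Uhrf1, the remodeller gene Hells and the de novo methyltransferase gene Dnmt3b, which stood at 88.9 and 90.9 against 128 and 125 CPM. Dnmt1, the maintenance methyltransferase gene, was not called (-0.36 ± 0.17 SE). Of Ezh2, Hells, Dnmt3b and Uhrf1 none was called without the replicate term, and leaving out 1 library left 0, 2, 2 and 0 DNA methylation genes lower.

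**Figure D5:**
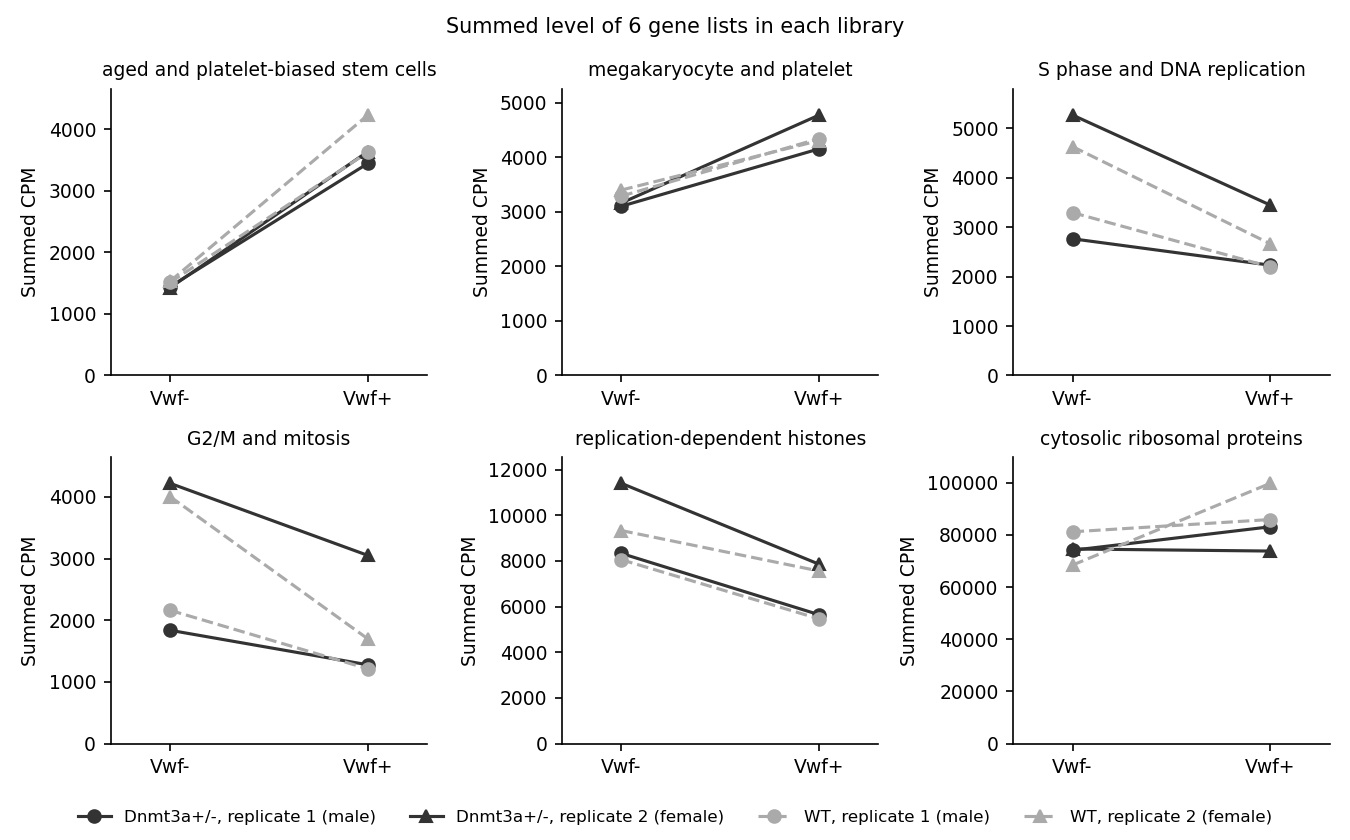
Summed CPM of the tested members of 6 gene lists in each library, with lines joining the fractions of a genotype and sex (Dnmt3a+/- black, WT grey, circles male, triangles female). In Dnmt3a+/- cells both lines rise for the first 2 lists and fall for S phase, G2/M and histones, and the female libraries start higher for those 3.

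Replication-dependent histone genes, whose transcripts build the nucleosomes of newly made DNA, had the largest share of lower calls among the lists. All 48 tested had a negative change, 40 were called lower and 0 higher, and the median was -0.70. By class, 3 of 5 H1 genes, 10 of 12 H2A genes, all 11 H2B genes, 8 of 10 H3 genes and 8 of 10 H4 genes were lower, with class medians from -0.51 to -0.76. Hist1h1b stood at 68.6 and 110 against 162 and 253 CPM (-1.22 ± 0.15 SE), Hist1h3i at 31.1 and 52.2 against 61.7 and 101 CPM, Hist1h2bh at 33.9 and 56.2 against 63.4 and 100 CPM and Hist1h2bk at 42.5 and 72.2 against 87.5 and 123 CPM. In each of the 4 genes both Vwf+ libraries lay below both Vwf- libraries, and the female library was the higher one of each fraction. The linker histone gene Hist1h1c, the most abundant, stood at 968 and 1340 against 1200 and 1636 CPM and was not called. Histone genes are near-identical to each other, and how reads mapping to several of them were counted is not given in the sources used here, so the values of single histone genes are uncertain. Of the histone genes 0 were called without the replicate term, and leaving out 1 library left 9, 25, 26 and 26 lower.

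The promoters of these 4 histone genes are shown because all 4 hold CCAAT boxes, which the choice of genes did not use, and Hist1h2bk also holds an octamer. Each line gives the 250 bases before the transcription start, 5′ to 3′ on the gene's strand, from RefSeq on GRCm38.p6, with the CCAAT box (CCAAT on either strand) and the octamer (ATTTGCAT on either strand) in capitals. Their positions on chromosome 13 are 21780626 to 21780875 on the minus strand for Hist1h1b, 23543445 to 23543694 on the minus strand for Hist1h2bh, 22035571 to 22035820 on the plus strand for Hist1h2bk and 21783398 to 21783647 on the minus strand for Hist1h3i.
Hist1h1b: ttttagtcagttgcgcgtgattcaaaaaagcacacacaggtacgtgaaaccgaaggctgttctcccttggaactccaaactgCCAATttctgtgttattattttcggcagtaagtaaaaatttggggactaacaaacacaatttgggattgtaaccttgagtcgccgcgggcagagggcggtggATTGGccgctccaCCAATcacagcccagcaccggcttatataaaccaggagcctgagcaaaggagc
Hist1h2bh: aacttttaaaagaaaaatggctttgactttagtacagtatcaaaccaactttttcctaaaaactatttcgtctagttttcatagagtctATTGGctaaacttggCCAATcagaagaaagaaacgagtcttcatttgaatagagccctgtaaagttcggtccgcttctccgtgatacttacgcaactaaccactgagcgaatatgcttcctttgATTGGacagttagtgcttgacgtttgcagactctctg
Hist1h2bk: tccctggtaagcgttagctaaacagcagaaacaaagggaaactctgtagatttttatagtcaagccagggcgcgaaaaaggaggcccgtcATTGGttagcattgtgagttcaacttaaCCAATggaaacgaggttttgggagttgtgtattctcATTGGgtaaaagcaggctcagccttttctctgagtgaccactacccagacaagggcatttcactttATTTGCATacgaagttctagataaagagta
Hist1h3i: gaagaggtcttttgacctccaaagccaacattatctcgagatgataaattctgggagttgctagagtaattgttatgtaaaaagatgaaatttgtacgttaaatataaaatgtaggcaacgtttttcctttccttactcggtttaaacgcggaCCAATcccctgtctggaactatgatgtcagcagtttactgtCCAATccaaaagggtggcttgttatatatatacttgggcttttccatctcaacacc
Of 40 lower histone genes 36 had a promoter in the RefSeq table. Of their 37 promoters 86.5% held a CCAAT box and 27.0% an octamer, against 33.8% and 1.6% of all 32851 promoters of that length in the table. All 11 promoters of the lower H2B genes held a CCAAT box and 5 held an octamer. Hist1h2bk has 3 CCAAT boxes and 1 octamer, Hist1h1b and Hist1h2bh have 3 CCAAT boxes each and Hist1h3i has 2. Neither motif contains the other, and a match describes the sequence only. No share is given for histone genes that were not called, so these shares do not bear on being lower in Vwf+ cells.

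Lists without a called gene cover the basal machinery. Of 77 cytosolic ribosomal protein genes, 54 nuclear-encoded oxidative phosphorylation genes, 23 cholesterol synthesis genes, 19 heat shock genes and 16 erythroid genes, 0 were called by edgeR, with medians of 0.08, -0.07, -0.05, 0.17 and -0.31. The ribosomal protein gene Rpsa stood at 3810 and 3639 against 3468 and 3959 CPM, and the chaperone gene Hsp90ab1 at 3577 and 3996 against 2756 and 4048 CPM. The ATP synthase gene Atp5a1 (-0.01 ± 0.16 SE), the sterol regulator gene Srebf2 (-0.17 ± 0.15 SE) and the carbonic anhydrase gene Car2 (0.10 ± 0.15 SE) were likewise not called. A test that misses its threshold does not show that these levels were equal.

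Called genes were mostly protein-coding, with 541 higher and 276 lower of 14146 tested, while 0 of 263 antisense, 159 miRNA and 92 snoRNA genes were called. By level, 3 bins of tested genes from low to high gave 117 higher and 19 lower calls, 265 and 138, and 178 and 138. The median SE was 0.95, 0.19 and 0.14 in these bins, so small changes of scarce genes were not detectable in these libraries. The parts of depth and of spread between pools in the SE were not tested. Some called genes were neighbours. Runs of at least 3 adjacent tested genes called in the same direction included Hoxb9, Hoxb8 and Hoxb7 on chromosome 11 (96271457 to 96290162) and Scara3, Clu and Gulo on chromosome 14 (65919394 to 66009207) among higher genes. Among lower genes they were H2-Ob, H2-Ab1, H2-Aa and H2-Eb1 on chromosome 17 (34238903 to 34316674) and 5 runs of histone genes. On chromosome 13, 37 of 47 tested histone genes (78.7%) and 12 of 523 other genes (2.29%) were lower.

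WT cells gave a reference for the same contrast in other animals. There 1329 genes (8.35%) were called, 728 higher and 601 lower, from libraries that the Dnmt3a+/- comparison does not use, although both share the fit's replicate term and dispersion. All 560 higher and all 295 lower genes of the Dnmt3a+/- comparison had the same sign in WT cells, against 66.3% of the 15062 genes that were not called, and 461 and 243 of them were called there in that direction. Their median log2 changes were 1.16 and -0.78 in Dnmt3a+/- and 1.19 and -0.85 in WT cells. Clu was 4.34 ± 0.19 SE higher in Dnmt3a+/- and 4.53 ± 0.19 SE higher in WT cells, and Flt3 changed by -2.31 and -2.92. In the test of the difference between genotypes 0 of 15917 genes (0%) passed edgeR's test, with a smallest adjusted p of 0.913, 365 genes (2.29%) at an unadjusted p under 0.05 and 0 calls by DESeq2 and by limma on TPM. There were 11 calls with 4 blocks of genotype and replicate number, 30 without a filter on low counts, 58 without the male Vwf+ WT library, 18 without the male Vwf- WT library and 1 without either Vwf+ Dnmt3a+/- library. A call made in 1 genotype and not in the other, as for 151 genes called in Dnmt3a+/- cells alone and 625 in WT cells alone, is not a shown difference.

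The G2/M list had smaller changes in Dnmt3a+/- than in WT cells, with no gene that passed the test of the difference. Its median change was -0.45 in Dnmt3a+/- and -1.02 in WT cells, the change was less negative in Dnmt3a+/- cells for all 35 genes, and 11 of 35 had an unadjusted interaction p under 0.05, against 2.29% of all genes. The summed G2/M level in the WT libraries was 1213 and 1698 CPM in Vwf+ and 2162 and 4005 CPM in Vwf- cells. Thus the female Vwf+ Dnmt3a+/- library, at 3051 CPM, was the Vwf+ library with the highest sum, and without it the Dnmt3a+/- median was -0.63. For the S phase list the medians were -0.46 and -0.70, and the change was more positive in Dnmt3a+/- cells for 34 of 40 genes. In that list 0 genes had an unadjusted interaction p under 0.05. For histones the medians were -0.70 and -0.64, with 0 such genes and a more positive change for 17 of 48. For the aged and platelet-biased list they were 1.77 and 1.87, for megakaryocyte and platelet genes 0.54 and 0.34, and for immediate-early genes 0.26 and 0.69. For 77 cytosolic ribosomal protein genes they were 0.08 and 0.34, and the change was more positive in Dnmt3a+/- cells for 1. For 54 oxidative phosphorylation genes they were -0.07 and 0.10, and it was more positive for 10. All 9 tested markers of mature megakaryocytes and platelets had a more positive change in Dnmt3a+/- cells. A shared direction was thus not confined to G2/M genes.

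The 6 genes with the smallest interaction p were Kcnb2, Plekhg3, Hrasls5, Matn4, Ntf5 and Aspm. Kcnb2, a potassium channel gene, stood at 3.68 and 5.61 against 0.287 and 0.766 CPM in Dnmt3a+/- and at 4.86 and 14.3 against 0 and 0.0601 CPM in WT cells (unadjusted p = 5.7e-05). Matn4 stood at 57.7 and 84.2 against 5.20 and 2.79 CPM in WT cells, and its log2 change was 2.96 ± 0.23 SE in Dnmt3a+/- and 4.22 in WT cells (unadjusted p = 0.0011). Plekhg3, a guanine nucleotide exchange factor gene, changed by -0.38 ± 0.20 SE in Dnmt3a+/- and by -1.57 in WT cells, and the spindle gene Aspm by -0.47 ± 0.18 SE and -1.40. Hrasls5 was at 0 in both Vwf+ Dnmt3a+/- libraries, against 0.119 and 0.383 CPM in Vwf- cells, and Ntf5, a neurotrophin gene, at 1.27 and 2.46 against 0.191 and 0.894 CPM. With adjusted p of 0.913 or more, none of these 6 differences between genotypes passed.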

How the data were processed

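RNA was measured in 8 libraries of sorted mouse LT-HSCs, grouped by their labels. The authors deposited whole-number counts per gene symbol and a second table in TPM, which is scaled to library total and gene length. Per the submitters' processing notes, Trim Galore, STAR, featureCounts and DESeq2 were named without versions or roles, with build mm10; annotation, strand setting, reads mapping to several places and molecular identifiers are not given in the sources used here. From these counts, edgeR 4.0.16 in R 4.3.3 fitted 4 group means plus the replicate number (3 residual degrees of freedom) to all 8 libraries, after filterByExpr with a minimum count of 10 and TMM scaling, with the quasi-likelihood test adjusted by the Benjamini-Hochberg method over 15917 of 24421 genes at 0.05. SE was computed back from the change and its F statistic.

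The replicate number was kept as a block because number 1 is the male and number 2 the female pool of each group in the labels. Deviations of same-numbered libraries correlated with r from 0.13 to 0.3 over the 6 pairs of groups (0.3 for the 2 Dnmt3a+/- groups, 15917 genes). Sex and replicate cannot be told apart.

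Genes named were, per direction, the 15 with the smallest p that moved alike in both pairs, and the 6 of widest fold with at least 5 CPM in the higher group. Also named were the 6 with the smallest interaction p and, per list, up to 4 called members in each direction and the member with the highest level. Sort markers and Dnmt3a were added, and other genes were named after their values were seen. The comparison, its genes and the gene lists were chosen with earlier results of these data known. Alternatives were the fit without the replicate number, 4 blocks of genotype and number, DESeq2 1.42.0, RLE factors, no filter, limma 3.58.1 on log2(TPM + 1), each library left out, the Dnmt3a+/- libraries alone and, chosen after seeing the data, counts without Rn45s. The test was checked on simulated data. In data drawn from the fit's own means and dispersions, 48 of 100 genes changed 2-fold and 79 of 100 changed 4-fold were called. Besides these, 6 unchanged genes were called. Such data share the fit's model, so they cannot show whether that model is wrong. Coordinates are from GENCODE M21 on GRCm38 and promoters from RefSeq on GRCm38.p6. Promoter motifs were also counted for all higher and all lower genes and are reported only for histones. Of the higher genes 75.7% had a promoter in the table, under the share set for such a check, and of the lower genes 82%. Motifs other than the CCAAT box and the octamer were counted too and are not reported here.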

Additional observations from a re-analysis of the deposited data

How the results depend on the processing

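The replicate block decided most of the count of calls: without it 169 genes were called in Dnmt3a+/- and 314 in WT cells, against 855 and 1329 with it, and the cause was not tested. With limma on log2(TPM + 1) the counts were 389 and 599. Leaving out 1 library gave 386 to 1125 calls in Dnmt3a+/- cells, 635 to 2000 in WT cells and 0 to 58 for the difference between genotypes. The last count, 0 in the reported fit, was 11 with 4 blocks of genotype and replicate number and 30 without a filter on low counts. The other settings kept the counts within 1.5 times. In Dnmt3a+/- cells 1257 genes were called with 4 blocks, 1001 with DESeq2 (844 of them shared), 841 with RLE factors, 1100 without a filter, 873 with the Dnmt3a+/- libraries alone (789 shared) and 830 without Rn45s, the last chosen after seeing the data. In a fit that left an arm with 1 library, that library was assumed to vary like the other groups. All 125 named genes that were called kept their direction under every setting run, and 52 of them were called under every one, whereas 54 were called without the replicate block. With 2 libraries a group and 21809278 to 39402418 counts, the median SE of the log2 change was 0.95, 0.19 and 0.14 from the low to the high bin of level, which limits what can be called among scarce genes.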

Other observations

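Some gene families outside the lists were looked up after their members' values were seen, so their counts carry no test. Of 18 tested semaphorins, guidance and adhesion ligands, 5 were higher in Vwf+ Dnmt3a+/- cells and 0 lower, among them Sema4f by 2.57 ± 0.38 SE and Sema6d by 2.30 ± 0.40 SE. Of 18 ephrins and Eph receptors 4 were higher and 0 lower, namely Epha2, Efna1, Efnb2 and Ephb4. Of 4 platelet-derived growth factor ligand genes 3 were higher: Pdgfc by 3.02 ± 0.40 SE, Pdgfd by 1.24 ± 0.18 SE and Pdgfb by 1.34 ± 0.25 SE. Of 23 cyclic nucleotide phosphodiesterase genes 5 were higher and 2 lower, with Pde9a at 2.36 ± 0.22 SE and Pde4d at -0.50 ± 0.14 SE. Of 4 EH domain genes 2 were higher, Ehd3 and Ehd2, and of 4 Bex genes 2 were higher, Bex4 and Bex1. Median log2 changes were 0.57 for the semaphorins, -0.16 for ephrins and Eph receptors and 0.01 for phosphodiesterases. For the platelet-derived growth factor, EH domain and Bex genes they were 1.58, 1.13 and 0.67. Over all tested genes the median was -0.01, and 3.52% were higher and 1.85% lower.

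In the lower direction, 3 of 14 P2 purinergic receptor genes were called, P2ry2, P2ry10 and P2rx7, and 1, P2ry1, was higher. Both tested Ctla2 genes, which encode inhibitors of cysteine proteases, were lower, Ctla2a by -1.07 ± 0.15 SE and Ctla2b by -0.83 ± 0.14 SE. Of 37 kinesin genes 7 were lower and 2 higher. Median log2 changes were -0.13 for the purinergic receptor genes, -0.95 for the Ctla2 genes and -0.07 for the kinesins.

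Among the 151 genes called in Dnmt3a+/- and not in WT cells, 12 had an unadjusted interaction p under 0.05, and none passed after adjustment. They included Ppbp, which stood at 1.48 and 0.301 CPM in Vwf+ and 1.06 and 0.51 CPM in Vwf- WT libraries, and Myl9, a myosin light chain gene found in platelets and smooth muscle. Myl9 stood at 0.746 and 7.20 CPM in Vwf+ and at 0.167 and 0.0958 CPM in Vwf- Dnmt3a+/- libraries, so that the female Vwf+ library was again the high one. The interferon lambda receptor gene Ifnlr1 stood at 2.85 and 3.19 against 0.167 and 0.0319 CPM in Dnmt3a+/- and at 1.08 and 1.85 against 0.354 and 0.751 CPM in WT libraries.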
